A study of Mus musculus with 15 samples.

Results

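The cytoplasmic ribosomal protein genes of the mouse were followed here through both RNA-seq count tables of the series. Members were taken by name alone: every gene whose symbol is Rpl or Rps followed by a number, with or without the suffixes a, x or l, together with Rpsa and Rplp0 to Rplp2, and without the entries named as -ps pseudogenes. The rule found 88 genes of the 25038 in the RPE/choroid table and 85 of the 20910 in the cultured cell table. Of the 88, 77 encode the canonical proteins of the ribosome, 46 of the large 60S subunit and 31 of the small 40S subunit. A further 6 are paralogues of canonical genes (Rpl22l1, Rpl7l1, Rps27l, Rps4l and, in the tissue table, Rpl39l and Rpl3l), and 5 carry such a symbol but are processed pseudogenes in the GENCODE annotation (Rps12l1, Rpl6l, Rps3a2, Rps3a3 and, in the tissue table, Rpl32l). Fau and Rack1, which also encode 80S proteins, lie outside the name rule.

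The cultured cells, called mRPE, were retinal pigment epithelium (RPE) cells pooled from adult C57BL/6J mice and immortalized with a lentivirus carrying the papillomavirus genes E6 and E7. Cas9 was introduced by lentivirus with puromycin selection, a synthetic guide RNA against exon 5 of Prom1, the gene of the pentaspan membrane protein prominin-1, was then transfected, and each knockout line is 1 clone. There were 4 wild-type (WT) libraries, 3 of clone KO22 and 2 of clone KO26, and the study left both KO26 libraries out as outliers. The library names carry the prefixes 8995 and 9262, treated here as the sequencing batches that the study describes. Batch 8995 held 1 library of each line and batch 9262 held 3 WT, 2 KO22 and 1 KO26 library. The tissue was RPE with choroid from 3 WT mice and from 3 mice labelled Prom1-KO, made by crossing Prom1 fl/fl mice with RPE65-Cre mice, in which the RPE65 promoter drives Cre, and giving tamoxifen by gavage. Age, sex and the alleles or treatment of the WT mice are not given in the labels. The labels do not say that the libraries of 1 line came from separate cultures, so the p-values below measure only the spread between these libraries.

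A ribosome is built in the nucleolus from ribosomal RNA and 1 copy of nearly every ribosomal protein, so their mRNAs are abundant and usually rise and fall together. Most of these mRNAs are TOP mRNAs, which begin with a C followed by a run of pyrimidines. Through this run, mTORC1 and the protein LARP1 control their translation and their stability when nutrients are scarce. The paralogues replace or accompany a canonical protein in some cell types.

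The start of the transcript is shown for 8 members, chosen among those whose RefSeq start carries such a pyrimidine run. Each line gives 10 bases before and 20 bases from the RefSeq start, 5′ to 3′, and the capitals mark the unbroken run of C and T from that start.
Rps6: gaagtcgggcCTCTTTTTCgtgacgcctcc
Rpl38: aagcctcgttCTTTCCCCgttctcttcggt
Rplp2: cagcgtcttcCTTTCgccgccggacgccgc
Rps27: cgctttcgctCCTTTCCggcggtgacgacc
Rpl15: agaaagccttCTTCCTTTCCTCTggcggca
Rpl35: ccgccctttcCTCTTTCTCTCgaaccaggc
Rps10: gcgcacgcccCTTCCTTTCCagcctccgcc
Rpl28: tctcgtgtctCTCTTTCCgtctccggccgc
On the GRCm38.p6 build used by the RefSeq promoter table, these windows lie at chr4:86857348-86857377 on the minus strand for Rps6 and at chr11:114668570-114668599 on the plus strand for Rpl38. Those of Rplp2 and Rpl28 lie at chr7:141447641-141447670 and chr7:4792955-4792984, both on the plus strand. Those of Rps27, Rpl15, Rpl35 and Rps10 lie on the minus strand, at chr3:90213629-90213658, chr14:18270967-18270996, chr2:39005112-39005141 and chr17:27635225-27635254.

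The promoter table held 63 of the 88 members, with 75 promoters, among 32851 promoters in all. A C at the RefSeq start followed by at least 4 C or T letters on the transcribed strand was found in 18.7% of the members' promoters and in 2.51% of all promoters. A C with at least 6 such letters after it, within 20 bases of the start, was found in 52.0% and 21.2%. The letters CCGGAAG, the core bound by ETS factors, were present on either strand in 36.0% of the members' promoters and 8.86% of all promoters, each 300 bases long. The E-box CACGTG was present in 10.7% and 7.15%, and TATAAA in 10.7% and 13.6%. These matches describe the letters in the windows and depend on the start that RefSeq gives.

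The members' part of the libraries was a few percent in culture and under 1% in tissue. In the mRPE libraries, of 8076188 to 27537863 counts each, the members took 2.64% to 5.44% of all counts, and the large and small subunit genes stood in a ratio of 1.48 to 1.63. In the RPE/choroid libraries, of 48154444 to 61766179 counts each, they took 0.404% to 0.602% of all counts at a ratio of 1.61 to 1.67. Mitochondrially encoded genes took 64.9% to 69.1% of counts in the WT tissue, 71.0% and 71.3% in Prom1-KO replicates 1 and 2, and 84.2% in replicate 3. In mRPE they took 12.9% to 21.6%, highest in WT. Prom1 itself was not analysed here in mRPE. In the tissue it stood at 48.7, 49.6 and 53.3 CPM (counts scaled to a library total of 1e+06 reads) in WT and at 49.9, 48.1 and 35.5 in the libraries labelled Prom1-KO, so the groups overlapped, and a count over the whole gene cannot show whether the floxed part was missing in RPE cells. Of 11 RPE markers, 4 (Best1, Rdh5, Pmel and Mitf) were tested in mRPE, and their sum was 11.8 to 17.4 CPM in WT, 17.3 to 39.9 in KO22 and 8.17 to 12.6 in KO26, and the other 7 were not analysed here in mRPE. In tissue the 11 markers summed to 1762 to 2691 CPM in WT and 394 to 554 in Prom1-KO.

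**Figure D1:**
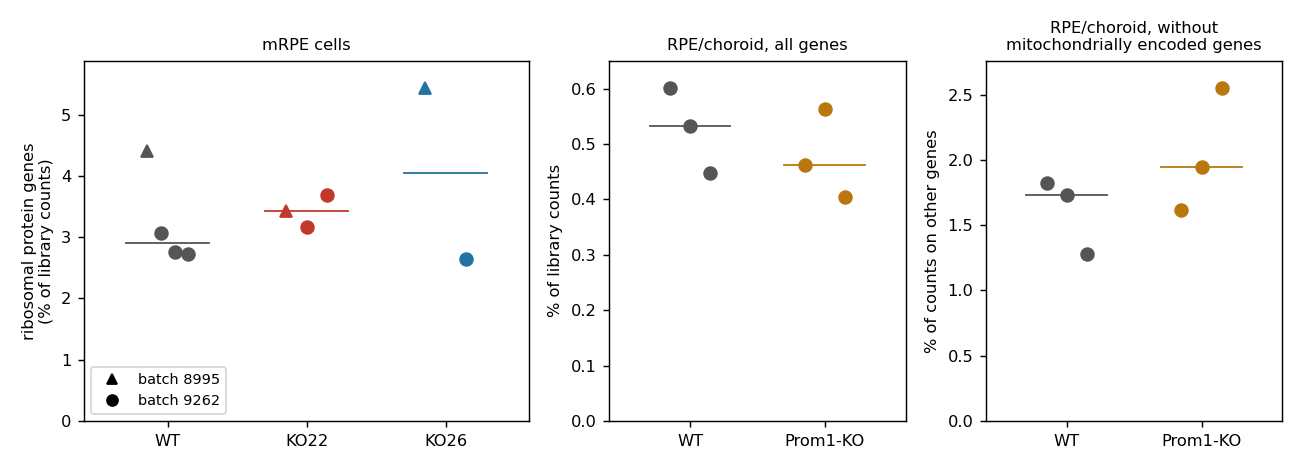
Share of counts, in percent, that fell on the ribosomal protein genes in each library (points; lines are group medians) for mRPE, for RPE/choroid, and for RPE/choroid without the mitochondrially encoded genes. In WT and KO26 the library of batch 8995 (triangles) stands highest, at 4.41% and 5.44%, whereas the KO22 library of that batch, at 3.42%, lies between the other KO22 libraries, and the tissue groups overlap in both panels.

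Levels between genes were compared as TMM-normalised CPM per kilobase of coding sequence. In WT mRPE the median canonical gene stood at 528 CPM per coding kb. The highest was Rps4x, the X-linked gene of the small subunit protein eS4, at 2888, followed by Rpl41 at 2303, Rpl10 at 2206 and Rpl7a at 1577. Rps4x alone made up 7.91% to 8.28% of the members' counts in WT and 7.18% to 8.33% in KO22. In WT RPE/choroid the median was 110 CPM per coding kb, and Rpl41 (1730), Rpl31 (521) and Rpl39 (480) led the order. Across the 77 canonical genes the levels in both materials had a Spearman rho of 0.354, and a Pearson r of 0.755 on the log2 scale. All values share the same 2 sets of libraries, and the reads over the untranslated ends are counted with a short coding length such as that of Rpl41.

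Although the proteins are needed in nearly equal numbers, the counted levels per coding kb spanned 2290-fold in WT mRPE and 2830-fold in WT tissue. The 3 lowest were the same genes in both: Rpl24 (1.26 in mRPE and 0.610 in tissue), Rps10 (7.10 and 1.15) and Rpl13a (11.3 and 3.02), and the next gene up in mRPE, Rps21, stood at 115. In GRCm39 the exons of Rpl24 overlap those of another annotated gene on the same strand over 41.1% of their length, those of Rpl13a over 33.0% and those of Rps10 over 14.9%. The counter used for mRPE drops reads that touch more than 1 gene, and the effect of such overlap on these counts was not tested. Of the 77 canonical genes, 74 have at least 1 near copy in the genome, meaning a match elsewhere over at least 80% of the coding sequence at 95% identity or more. The median number was 6 and the highest 56, for Rpl21, and 21 genes had a copy identical over the match. In mRPE, reads that align equally well to a copy are not counted by the authors' counter, so each level may be too low, and for the tissue the counter is not given in the sources used here. Of the genes without a copy, Rps3 and Rpl8 stood at 648 and 422 CPM per coding kb in WT mRPE, around the median of 511 of the 74 with copies, and the Spearman rho of level with number of copies was 0.19 in mRPE and 0.134 in tissue.

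**Figure D2:**
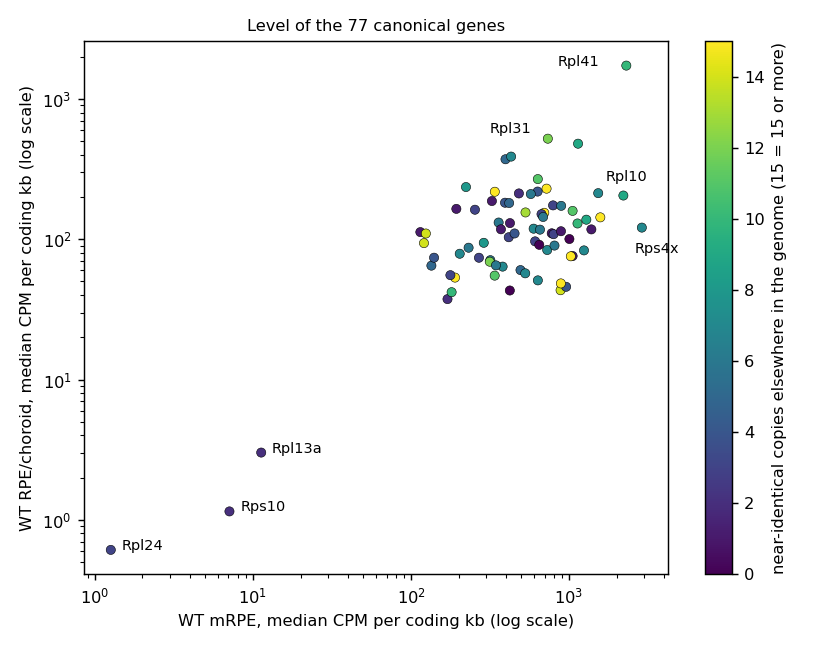
Median level of each of the 77 canonical genes in the WT libraries, in CPM per coding kb on log axes, in mRPE (horizontal) and in RPE/choroid (vertical), coloured by the number of near copies. Most genes lie in 1 cloud, and Rpl24, Rps10 and Rpl13a lie far below it in both materials.

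The comparison of KO22 with WT mRPE asks which genes differ in a Prom1 knockout clone. Few of the 84 members tested passed: 10 were higher (11.9%), 4 were lower (4.76%) and 70 did not pass edgeR's quasi-likelihood test with batch as a term at a Benjamini-Hochberg adjusted p under 0.05. Among all 20455 genes, 26.9% were called higher and 26.1% lower. The median log2 fold change was 0.11 for the members and -0.03 for all genes, and 51 of the 84 had a positive value. With a fold limit of 1.2 on the log2 scale added, only Rpl29 (higher) and Rps4l (lower) were called, against 11.4% of all genes higher and 13.8% lower. Of 48 large subunit members 6 rose and 1 fell, with a median of 0.15, and of 33 small subunit members 4 rose and 3 fell, with a median of -0.04. These counts depend on single libraries. Without KO22 replicate 3 only 2 rose and 18 fell, without KO22 replicate 1 there were 48 that rose, and without WT replicate 1 there were 45. Each of those 2 last libraries is the only one of its line in batch 8995. In the same order, the median log2 fold change of the members was -0.16, 0.37 and 0.35, and that of all genes -0.10, -0.04 and -0.03. The shares of all genes called in these settings are not given here.

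Among the large subunit genes the most changed was Rpl29, which encodes eL29, a protein of the 60S surface. It stood at 190 CPM in the WT library of batch 8995 and at 92.9, 89.5 and 86.5 in those of batch 9262, and in KO22 at 256 in batch 8995 and at 287 and 362 in batch 9262. Every KO22 library lay above every WT library. Its log2 fold change was 1.45 ± 0.24 (SE), with an adjusted p of 0.000776 by edgeR, and stayed between 1.16 and 1.86 with each library left out. Rpl8 (uL2, next to the peptidyl transferase centre) stood at 703 CPM in WT batch 8995 and 333, 318 and 298 in batch 9262, and in KO22 at 717, 649 and 748. Its WT library of batch 8995 fell within the KO22 range, and it rose by 0.82 ± 0.20 (edgeR adjusted p = 0.00629). Rpl11, part of the 5S particle that binds Mdm2 when ribosome assembly fails, had 287, 197, 186 and 173 CPM in WT and 312, 260 and 334 in KO22, with groups that overlapped, and rose by 0.52 ± 0.14 (edgeR adjusted p = 0.0135). Rpl13 rose by 0.49 and Rpl34 by 0.56 on the log2 scale, but with each library left out they ran from 0.30 to 0.73 and from 0.19 to 0.80 and lost their calls in 5 and 4 of the 7 settings. Rpl11 lost its call without KO22 replicate 3, at 0.29. The one large subunit gene that fell was Rpl27a (uL15). It had 239, 142, 137 and 118 CPM in WT and 141, 97.0 and 121 in KO22, overlapping, a log2 difference of -0.42 ± 0.14 (edgeR adjusted p = 0.0289), which ran from -0.62 to -0.27 and lost its call in 3 of 7.

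Among the small subunit genes Rps12 (eS12) fell most of those with high counts. It stood at 232 CPM in WT batch 8995 and 133, 135 and 117 in batch 9262, against 94.9 in KO22 batch 8995 and 65.6 and 104 in batch 9262. All 3 KO22 libraries lay below all 4 WT libraries, a log2 difference of -0.80 ± 0.19 (edgeR adjusted p = 0.00557) and -1.14 to -0.60 with each library left out. Rps29 had 231, 72.1, 72.4 and 70.8 CPM in WT and 82.2, 38.6 and 72.9 in KO22. The groups overlapped, and it differed by -0.70 ± 0.25 (edgeR adjusted p = 0.0421), or by -1.18 to -0.37 with each library left out, where the call was lost in 4 of 7. Rps10 (eS10), a contact of the mRNA entry channel, rose by 0.77 ± 0.20 on the log2 scale (edgeR adjusted p = 0.00942), from 3.01 to 4.05 CPM in WT to 5.54 to 6.60 in KO22, without overlap, at one of the 3 lowest levels per coding kb given above. Without KO22 replicate 3 Rps10 was at 0.64 and lost its call. Rps24 rose by 0.49, ran from 0.26 to 0.72 with each library left out, and lost its call in 5 of 7. Rps26, whose protein contacts the mRNA upstream of the start codon, had -0.60 and missed the limit at an edgeR adjusted p of 0.0516. Rps6, the substrate of S6 kinase, had 339, 257, 248 and 198 CPM in WT and 274, 297 and 346 in KO22, and was not called.

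Members linked to Diamond-Blackfan anaemia, a failure of red cell formation, include Rpl5, Rpl11, Rps19 and Rps26. Rpl5, the partner of Rpl11 in the 5S particle, stood at 977, 705, 736 and 616 CPM in WT and 788, 830 and 968 in KO22, overlapping (log2 fold change 0.19). Rps19 stood at 163, 104, 97.6 and 82.4 in WT and 99.4, 72.9 and 107 in KO22 (-0.26). Rpl38, known for its part in the translation of Hox mRNAs, stood at 134, 53.4, 53.2 and 47.6 in WT and 90.8, 41.8 and 72.3 in KO22 (-0.06), and Rpl10a had a log2 fold change of -0.16. None of Rpl5, Rps19, Rpl38 and Rpl10a was called, and in each the WT library of batch 8995 was the highest of the 7.

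Rps4l, an autosomal intronless relative of Rps4x at chr6:148256098-148257431 (GRCm39, plus strand), was the only member with no count in a group. It had 2, 14, 7 and 6 counts in the WT libraries and 13 and 7 in the KO26 libraries, but 0 of 45720189 counts over the 3 KO22 libraries. At 3 counts, which a count of 0 allows, KO22 stood at most at 0.0664 CPM over the group, so that Rps4l was at least 6.84-fold lower than in WT (edgeR adjusted p = 0.00291) and at least 9.98-fold lower than in KO26. It kept its call with each library left out in the 4 of 7 settings where it passed the filter on low counts. Its counts were low everywhere, and no near copy of it was found in GRCm39. Rps4x, the abundant member of the pair, had 3811, 2273, 2284 and 1998 CPM in WT and 2737, 2636 and 2693 in KO22, overlapping and not called.

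**Figure D3:**
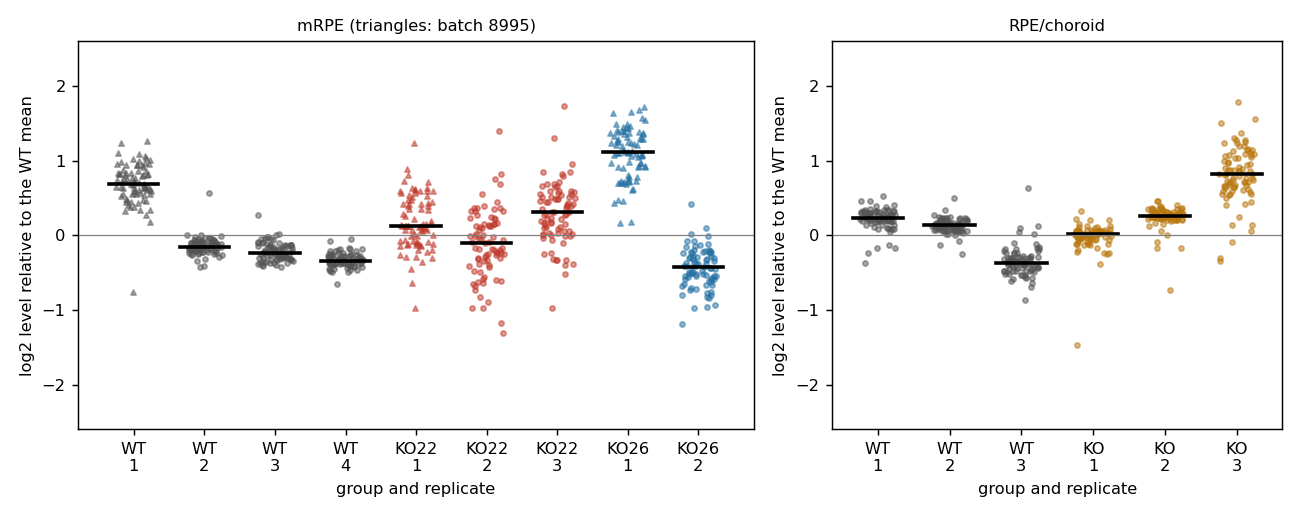
Log2 level of each member (points) in each library relative to the mean of the WT libraries of the same table, with the median as a bar and triangles for batch 8995. The medians are 0.69 and 1.12 in the WT and KO26 libraries of batch 8995 and 0.13 in the KO22 library, the mRPE libraries of batch 9262 lie between -0.43 and 0.31, and Prom1-KO tissue replicate 3 lies at 0.82.

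Nearly the whole family was higher in batch 8995 than in batch 9262 in WT and in KO26, but not in KO22. Over the 81 members other than pseudogenes, 80 were higher in the WT library of batch 8995 than in the mean of those of batch 9262, with a median log2 difference of 0.92, and 80 were higher in KO26, with a median of 1.55. In KO22 only 44 were higher, with a median of 0.04. Among the other 20380 genes 49.1% were higher in WT and the median was -0.01. Lists of related genes moved the same way as the members. Their medians in WT, KO26 and KO22 were 0.49, 1.01 and -0.37 for 77 mitochondrial ribosomal protein genes. For 40 genes of rRNA synthesis and ribosome assembly they were 0.49, 0.96 and -0.32, and for 18 other TOP mRNAs of translation 0.62, 0.76 and -0.12. The WT and KO26 libraries of batch 8995 were also the deepest in mRPE, at 27537863 and 24175274 counts. The KO22 library of that batch held 11863633, and those of batch 9262 held 8076188 to 20760399. The part of depth in these differences was not tested. In the fit over all 9 libraries the batch term called 43 of 85 members higher and 0 lower by edgeR, against 4.31% and 4.51% of all genes. Those called included Rpl28 (1.26 ± 0.19, edgeR adjusted p = 0.0058, the smallest), Rpl38 (1.36, adjusted p = 0.00983), Rps29 (1.59, adjusted p = 0.014) and Rplp2 (1.42, adjusted p = 0.0143). At an unadjusted p under 0.05, 73 members were higher and 0 lower, where 5540 of 20737 genes passed in either direction. Without the WT library of batch 8995 the batch term called 0 members, and without the KO22 library it called 80. The shares of all genes called in these fits are not given here. The WT library of batch 8995 stood apart from the 3 others by Dixon's test for 49 of the 81 members (60.5%). Among the other genes 9.65% had a WT library that stood apart, whichever of the 4 it was.

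For that reason the difference of KO22 from WT was taken within each batch. In batch 8995, with 1 library a line, 75 of the 81 members were lower in KO22 and 6 higher, with a median log2 difference of -0.54. In batch 9262, with 2 KO22 and 3 WT libraries, 68 were higher and 13 lower, with a median of 0.35. In both batches the other genes had medians of -0.04 and -0.02. Thus 62 members changed sign between the batches, every one of them lower in batch 8995 and higher in batch 9262, while 6 were higher and 13 lower in both. The test of this difference, an interaction of clone with batch over the 7 libraries, called 70 of 84 members lower in batch 8995 and 0 higher by edgeR, where 17.2% of all genes were called lower and 9.34% higher. At an unadjusted p under 0.05, 77 members were lower and 0 higher, where 7714 of 20455 genes passed in either direction. The interaction was -1.42 ± 0.19 for Rpl29 (edgeR adjusted p = 1.49e-05), -1.62 ± 0.23 for Rps27l (adjusted p = 2.42e-05), -1.31 for Rps2 (adjusted p = 7.1e-05), -1.26 for Rps26 (adjusted p = 0.00015) and -0.67 for Rps12 (adjusted p = 0.0439). Since batch 8995 holds 1 WT and 1 KO22 library, a difference between batches and a difference of either single library cannot be told apart. Replicate spread in this test comes from batch 9262 alone, so its SE and p-values hold none from batch 8995. Without KO22 replicate 3 the interaction called 35 members, and the share of all genes called in that fit is not given here.

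**Figure D4:**
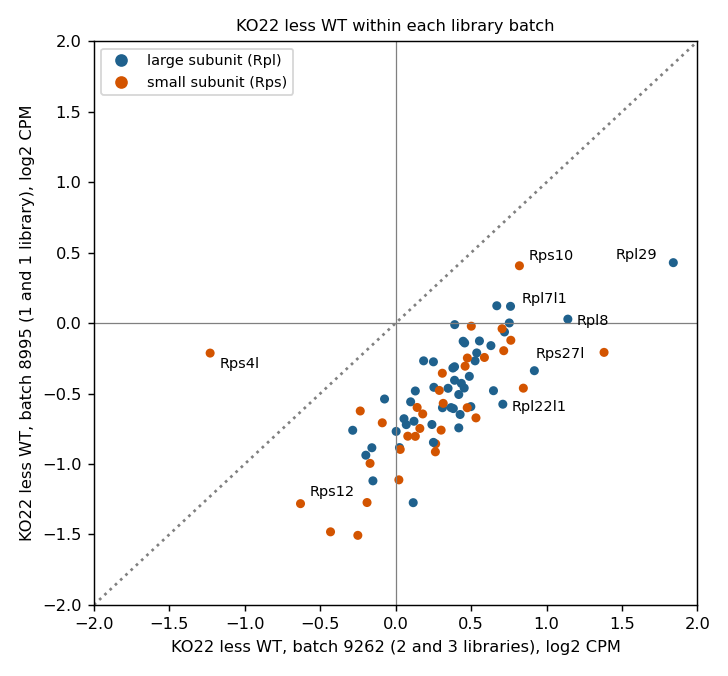
Log2 difference of KO22 from WT for each member in batch 9262 (horizontal axis, 2 and 3 libraries) against that in batch 8995 (vertical axis, 1 library each), coloured by subunit, with a dotted line of equal values. Most points (62 of 81) lie to the lower right of 0, higher in KO22 in batch 9262 and lower in batch 8995.

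Read over all 7 libraries, 3 of the 81 members (Rpl29, Rpl7l1 and Rps10) had every KO22 library above every WT library, which is 3.70% against 24.8% of all genes, and 2 (Rps12 and Rps4l) had every KO22 library below, 2.47% against 25.3%. Within batch 9262 alone 43 members lay above (53.1% against 37.5% of genes) and 2 below (2.47% against 37% of genes).

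The members' values in KO22 also went with the chromosome they sit on. Genes other than the members had median log2 fold changes that ranged over the chromosomes from -0.54 on chromosome 10 and -0.50 on chromosome 12 to 0.37 on chromosome 15 and 0.60 on chromosome 8. Across the 81 members the fold change and the median of their chromosome had a Spearman rho of 0.707, and a Pearson r of 0.682 over the 80 without Rps4l. The points share the same libraries, and members on 1 chromosome share its median. Of the 14 called members 12 had the sign of their chromosome, the exceptions being Rpl7l1 and Rps10 on chromosome 17, with a median of -0.04. Of all 81 members, called or not, 57 had that sign, and in KO26 with WT 56 of 81 did. Less the chromosome median, Rpl29 (chromosome 9) was at 1.18, Rps27l (chromosome 9) at 0.68 and Rpl8 (chromosome 15) at 0.46, whereas Rps12 (chromosome 10) was at -0.26, Rps29 (chromosome 12) at -0.19, Rpl27a (chromosome 7) at -0.10 and Rpl13 (chromosome 8) at -0.11. The median absolute fold change of the members went from 0.23 to 0.17 in KO22, and likewise from 0.19 to 0.13 in KO26 with WT. For KO26 with WT the rho was 0.206 and for the tissue 0.186. The number of chromosomes or arms per cell was not measured, and its part in these values was not tested.

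**Figure D5:**
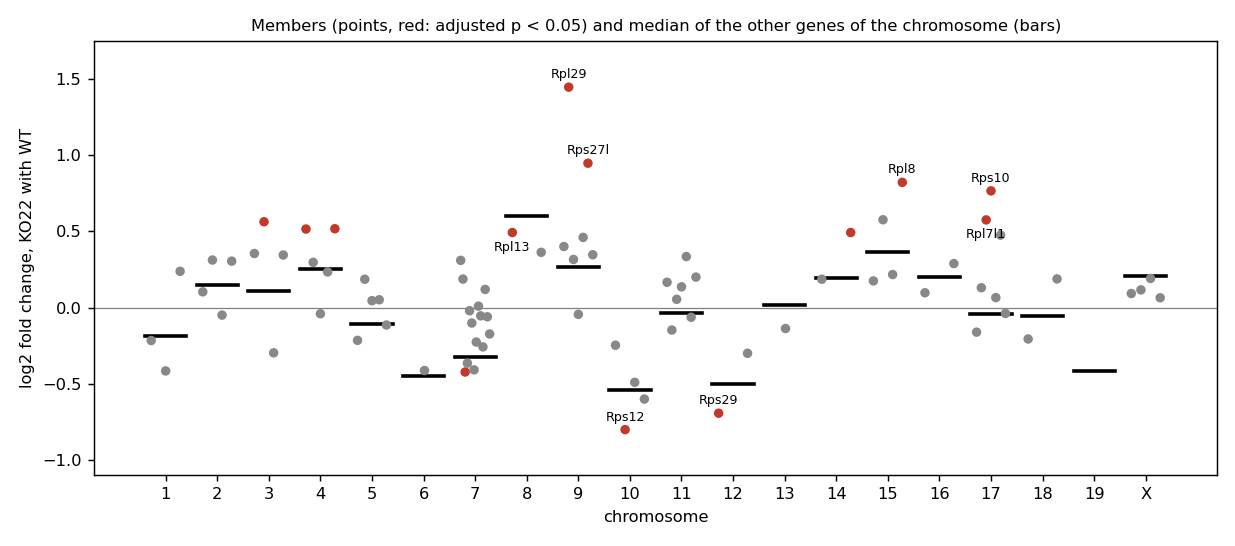
Log2 fold change of KO22 with WT for each member (points, red where the edgeR adjusted p was under 0.05) by chromosome, with the median of the other genes of that chromosome as a bar. The points tend to follow the bars, which run from -0.54 on chromosome 10 to 0.60 on chromosome 8, and Rpl29 lies far above its own. Rps4l is outside the plotted range and is not drawn.

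The 3 acidic stalk proteins, encoded by Rplp0, Rplp1 and Rplp2, recruit the elongation factors to the large subunit. Rplp0 stood at 1334, 795, 723 and 702 CPM in WT and at 823, 746 and 866 in KO22. Rplp1 stood at 552, 234, 224 and 198 in WT and 307, 210 and 322 in KO22, and Rplp2 at 342, 136, 120 and 113 in WT and 207, 118 and 178 in KO22. In all 3 the WT library of batch 8995 was the highest of the 7 and the groups overlapped. None was called, and the interaction with batch was -0.82, -1.12 and -0.98.

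Of the paralogues, Rps27l, a p53-responsive relative of Rps27, had 39.9, 15.2, 16.6 and 17.7 CPM in WT and 34.5, 36.9 and 51.8 in KO22 (log2 fold change 0.95 ± 0.28, edgeR adjusted p = 0.0175). It ran from 0.59 to 1.43 with each library left out and lost its call in 4 of 7. Rpl7l1, whose protein acts in 60S assembly, had 32.1, 21.7, 19.1 and 22.5 CPM in WT and 34.9, 34.8 and 37.3 in KO22, without overlap (0.58 ± 0.15, edgeR adjusted p = 0.00924), and lost its call without KO22 replicate 3, at 0.43. Rpl22l1 had 72.6, 38.9, 38.6 and 36.8 CPM in WT and 48.5, 53.3 and 73.6 in KO22 and was not called. The paralogue was also set against its canonical partner within each library, which removes a change that both share. The log2 ratio of Rps27l to Rps27 lay between -2.76 and -2.25 in WT and between -1.83 and -0.63 in KO22, a difference of 1.26. That of Rpl7l1 to Rpl7 was higher by 0.37, also without overlap. Both gave p = 0.0286 by a two-sided exact permutation test, the smallest this design allows, and an adjusted p of 0.114 over the 8 ratios tested. The ratio of Rpl22l1 to Rpl22 differed by 0.04 (exact permutation p = 0.771).

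Genes that build or regulate ribosomes were read in the same libraries, against 26.9% of all genes called higher and 26.1% lower. Of 40 genes of rRNA synthesis and ribosome assembly, 35 were higher in KO22 and 1 lower by edgeR, with a median log2 fold change of 1.31. Among them were Utp4, of the early small subunit processome (2.29 ± 0.12, adjusted p = 9.8e-07), Nob1, the nuclease that matures 18S rRNA (2.01, adjusted p = 1.51e-05), Gnl3, the nucleolar GTPase nucleostemin (1.49, adjusted p = 1.69e-05) and Riok2, a kinase of late 40S maturation (1.30, adjusted p = 1.31e-05). Within the batches 31 of the 40 were higher in KO22 in both, with medians of 0.66 and 1.55, where 6 of 81 ribosomal protein genes were. The interaction with batch was nevertheless called lower in batch 8995 for 29 of the 40. Of 10 chaperones of ribosomal proteins and of the 5S particle 6 rose and 0 fell, with Grwd1 (an Rpl3 chaperone) at 1.77, Rrs1 at 1.63, Heatr3 (which carries Rpl5 and Rpl11) at 1.36 and Rpf2 at 1.16. Outside the name rule, Fau had a log2 fold change of -0.30 and Rack1 of 0.00, and neither was called.

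The next lists also stand beside 26.9% of all genes called higher and 26.1% lower. Of 77 mitochondrial ribosomal protein genes, which are not members, 37 rose and 1 fell, with a median of 0.51, and their batch medians were -0.14 and 0.76. Of 18 other TOP mRNAs of translation 7 rose and 2 fell (median 0.22), with Eif3l at 1.14, Eef1d at 0.85, Pabpc1 at 0.81, Eif3f at -0.67 and Eef2 at -0.68. Of 14 regulators of TOP mRNA translation 7 rose and 3 fell (median 0.44), among them Eif4e (1.53), the cap-binding protein, Eif4ebp1 (1.34), its mTORC1-controlled repressor, Larp4 (1.25), a protein that protects these mRNAs, and Larp1 (1.00). All 6 proliferation markers were called higher, with a median of 1.97, and their sum was 750 to 957 CPM in WT and 2059 to 3311 in KO22. Malat1, a nuclear RNA, stood at 5960 to 7101 CPM in WT and 2156 to 2971 in KO22. Fibroblast markers summed to 10930 to 13920 CPM in WT and 4104 to 5869 in KO22. Their part in the ribosomal protein values was not tested. Among the 63 members with a promoter sequence, the 13 with a pyrimidine run at the RefSeq start that were measured in mRPE had medians of 0.99 for the WT batch difference, 1.88 for the KO26 batch difference and 0.19 for KO22 with WT, beside 0.86, 1.51 and 0.10 in the 47 others.

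In KO26 no member passed the test against WT. Of 85 tested, 0 passed edgeR's test in either direction, where 2.36% of all genes were called higher and 1.13% lower. DESeq2 called 0 members, and 0 had an unadjusted p under 0.05, where 4163 of all 20737 genes did. The median log2 fold change was 0.17, with 69 of 85 positive against 52% of all genes. This median came from libraries that stood on opposite sides: within batch 8995 the KO26 library was above WT for 77 of 81 members (median 0.41), and within batch 9262 it was below for 70 (median -0.20). Without the first KO26 library the median of the fit was -0.32, and without the second 0.68. The smallest adjusted p was that of Rpsa, the laminin receptor protein uS2, at 0.251 (log2 fold change 0.50 ± 0.23), with 1368, 935, 929 and 823 CPM in WT and 2104 and 1062 in KO26. None of the 40 assembly genes, the 77 mitochondrial ribosomal protein genes or the 18 other TOP mRNAs was called, although 4 of the 6 proliferation markers were higher and Eif4ebp1 rose by 0.70 (edgeR adjusted p = 0.024).

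KO22 and KO26 were also set against each other, to ask how far these clones differ. Of 85 members 3 were higher and 4 lower at an unadjusted p under 0.05, where 9156 of 20737 genes passed in either direction. DESeq2 called 1 member higher. By edgeR 0 were called higher and 3 lower, against 16.3% and 18.1% of all genes. Besides Rps4l these were Rps12, at 94.9, 65.6 and 104 CPM in KO22 and 383 and 115 in KO26 (log2 fold change -1.15 ± 0.31, edgeR adjusted p = 0.0151), and Rpl27a, at 141, 97.0 and 121 in KO22 and 331 and 124 in KO26 (-0.65 ± 0.22, edgeR adjusted p = 0.0434). In both genes every KO22 library except the batch 8995 library of Rpl27a lay below both KO26 libraries. With each of the 9 libraries left out, Rpl27a ran from -1.05 to -0.27 and lost its call in 7 settings, and Rps12 ran from -1.75 to -0.56 and lost it without KO26 replicate 1. Rpl29 had 301 and 107 CPM in KO26, overlapping KO22, with a log2 difference of 0.90 and an edgeR adjusted p of 0.0716. Of the 40 assembly genes 22 were higher in KO22 and 1 lower. Both comparisons of KO22, with WT and with KO26, share the KO22 libraries. The count of members higher went from 0 to 29 without the KO22 library of batch 8995. Their median log2 fold change was then 0.34, and that of all genes 0.01. The share of all genes called in that fit is not given here.

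In RPE/choroid no ribosomal protein gene passed the test of Prom1-KO against WT. Of 88 tested, 0 passed edgeR's test in either direction, against 0% of 24926 genes called higher and 0.193% lower. DESeq2 called 0 members, and 0 had an unadjusted p under 0.05, where 2068 of the 24926 genes did. The fold changes leaned one way, with 80 of 88 positive and a median of 0.39, against 51.8% of all genes and a median of 0.01. The size of the lean went with single libraries. Prom1-KO replicate 3, in which mitochondrially encoded genes took 84.2% of counts, had a median of 0.82 relative to the WT mean, and replicates 1 and 2 had 0.02 and 0.26, within or next to the WT range of -0.37 to 0.23. Without Prom1-KO replicate 3 the median was 0.10, with 74 of 88 still positive, and without WT replicate 3 it was 0.22, with 77 positive. With library totals alone as the scale, all genes had a median of -0.46 and the members -0.19, with 9 of 88 positive.

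The members with the smallest p in tissue followed that library. Rps27a, whose product is a fusion of ubiquitin and eS31, had 24.8, 19.6 and 18.2 CPM in WT and 26.1, 24.5 and 50.7 in Prom1-KO (log2 fold change 0.69 ± 0.30, edgeR adjusted p = 0.602). Rpl31 had 196, 195 and 165 in WT and 200, 223 and 547 in Prom1-KO (0.80, adjusted p = 0.657), and made up 3.90% to 4.89% of the members' counts in WT and 4.25% to 6.61% in Prom1-KO. In both genes replicate 3 is far above the rest and the other Prom1-KO libraries are close to WT. In the stalk genes replicate 3 stood nearer to the other libraries: Rplp0 had 104, 103 and 63.0 in WT and 89.8, 106 and 144 in Prom1-KO, Rplp1 had 59.3, 51.6 and 22.2 against 31.2, 49.2 and 38.5, and Rplp2 had 49.5, 40.6 and 22.7 against 30.4, 39.9 and 39.4, all with overlap.

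Paralogues known for one tissue were low in RPE/choroid. Rpl3l, which replaces Rpl3 in heart and skeletal muscle, had 0.814, 0.930 and 2.14 CPM in WT and 0.117, 0.522 and 2.79 in Prom1-KO, while skeletal muscle markers summed to 276 to 785 CPM in WT and 47.7 to 747 in Prom1-KO. Rpl39l, known from the testis, lay between 0.0561 and 0.531 CPM in all 6 libraries. Rps4l, with no count in KO22, had 1.01 to 2.01 CPM in WT and 1.48 to 2.16 in Prom1-KO. Rpl22l1 had 15.8, 14.4 and 11.7 CPM in WT and 14.1, 16.2 and 35 in Prom1-KO, and its ratio to Rpl22 differed by 0.07 (two-sided exact permutation p = 0.7). Over the 5 paralogue ratios in tissue the smallest p was 0.1, the least that 3 libraries against 3 allow, for Rps27l with Rps27, which differed by 0.34. None of the assembly, chaperone, TOP, mitochondrial ribosome or proliferation lists held a called gene. In bulk tissue fewer cells of a type and less RNA per cell cannot be told apart. Of the 11 RPE markers 4 were called lower in Prom1-KO, with Rpe65 at 204 to 287 CPM in WT and 1.13 to 5.97 in Prom1-KO, and photoreceptor markers summed to 40.6 to 1163 CPM in WT and 20.2 to 567 in Prom1-KO. Their part in the ribosomal protein values was not tested.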

How the data were processed

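Poly(A) RNA of 9 mRPE and 6 RPE/choroid libraries had been sequenced. Per the labels and the methods of the study, the authors trimmed reads with Trim Galore 0.6.7, aligned them to mm39 with STAR and, for mRPE, counted them per gene with its GeneCounts mode. The counter used for the tissue is not given in the sources used here. The deposited raw counts were used as they stand, and the authors' normalised counts of the same libraries were not used. Library totals ran from 8076188 to 61766179 counts, which sets the precision of low genes, and intervals or floors cover counting error only.

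Groups were taken from the labels. A gene entered the test if 3 or more libraries held 5 or more of its counts, in edgeR 4.0.16 (R 4.3.3), with TMM scaling and the quasi-likelihood test with Benjamini-Hochberg adjustment over all genes tested. Adjusted p under 0.05 was called. KO22 with WT was fitted over 7 libraries with batch as a term, both comparisons of KO26 over all 9, and the tissue over 6. Values per library are TMM-normalised CPM, and within-batch differences are means of log2(CPM + 0.5). DESeq2 1.42.0, DESeq2's size factors, library totals, TMM without the members, no filter, no batch term and leaving out each library were the alternatives. The batch coefficient, the interaction, the chromosome medians and batch 9262 alone were chosen after seeing the data. The scripts were tested on simulated data.

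The members and the gene lists were chosen with earlier results of these data known. The rule for naming took for every comparison the 5 higher and 5 lower members of smallest p, the paralogues with their partners, the stalk genes, 9 members of known special roles such as Rps6 and Rpl5, and up to 4 genes of each list by smallest p. Members outside it, such as those named for their level, were named after their values were seen. Near copies were found by BLAST of coding sequences against GRCm39, with GENCODE vM39 for gene positions, a release that may differ from the authors'. Promoters are from RefSeq on GRCm38.p6.

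Marker lists gave these counts of called genes in KO22 with WT: endothelial 1 higher and 2 lower of 5, fibroblast 0 and 3 of 4, immune 1 and 0 of 2, photoreceptor 1 and 2 of 4, red blood cell 0 of 1, RPE 1 and 1 of 4, and skeletal muscle 0 and 2 of 4. Of all genes in KO22 with WT, 26.9% were called higher and 26.1% lower. In KO26 with WT 1 fibroblast gene was lower. In tissue 4 RPE markers were lower and the other marker lists held no call. Some genes that met the naming rule are not reported here.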

Additional observations from a re-analysis of the deposited data

Results flagged for a closer look

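In WT mRPE the library of batch 8995 stood apart from the 3 others by Dixon's test. It held 72.5 CPM of Rpl22l1, 190 of Rpl29, 703 of Rpl8, 1334 of Rplp0, 552 of Rplp1, 342 of Rplp2, 232 of Rps12, 39.9 of Rps27l, 231 of Rps29 and 3811 of Rps4x. It was the highest of the 4 WT libraries for each of these genes. Chance sets a library apart in about 1 of 20 groups. Here the batch 8995 library stood apart for 49 of 81 members. Among the other genes 9.65% had a WT library that stood apart, whichever of the 4 it was. The batch 8995 library is the only WT library of its batch.

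The effect of KO22 differed between the batches for 70 members by the interaction test of edgeR, which called 17.2% of all genes lower and 9.34% higher. The difference, batch 8995 less batch 9262, was -1.30 for Rpl22l1, -0.76 for Rps6, -0.82 for Rplp0, -1.12 for Rplp1, -0.98 for Rplp2 and -1.62 for Rps27l on the log2 scale. It was -1.42 for Rpl29, -1.11 for Rpl8, -0.67 for Rps12, -1.1 for Rps29, -0.64 for Rpl7l1 and -0.76 for Rps4x. The test rests on 1 WT and 1 KO22 library of batch 8995, so the spread between libraries of that batch did not enter it.

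The clones differed from each other in 3 of 85 members, all lower in KO22, where 16.3% of all genes were called higher and 18.1% lower. Rps12 was lower in KO22 than in KO26 by a log2 fold change of -1.15, Rpl27a by -0.65, and Rps4l at least 9.98-fold. With each library left out, Rpl27a lost its call in 7 of 9 settings. Both KO26 libraries are among those the study left out.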

How the results depend on the processing

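For KO22 with WT, 5 were higher and 2 lower with no batch term, 6 and 2 in one fit over all 9 libraries, 9 were lower with library totals alone, and 48 were higher in batch 9262 alone. With each library left out, 2 to 48 were higher and 1 to 18 lower. For KO22 with KO26, 1 was higher with library totals alone and 1 with DESeq2's own test, and with each library left out 0 to 29 were higher and 1 to 13 lower. For KO26 with WT, 0 to 3 were higher with each library left out. The batch term called 0 to 80 members higher and the interaction 35 to 70 lower, again with each library left out, and the interaction called 54 to 71 under the other alternatives. The shares of all genes called in these alternative runs are not given here, and the cause of these moves was not tested. The 17 called fold changes, 14 of KO22 with WT and 3 of KO22 with KO26, kept their sign in every alternative run, and 8 missed the threshold with no batch term. Rpl29, Rpl8 and Rps12 kept their call in KO22 with WT with each of the 7 libraries left out. No paired analysis was possible because the replicate numbers follow only the order of accession. Library depth limits Rps4l, Rpl3l and Rpl39l, and near copies in the genome limit the level of 74 canonical genes.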
